A study of Caenorhabditis elegans with 6 samples.

Results

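The GDP-mannose and GDP-fucose synthesis genes of Caenorhabditis elegans were followed here by name. They were ZK632.4, F52B11.2, tag-335, bre-1, gmd-2 and ger-1, 6 of the 47656 genes in the deposited tables, and all 6 were found. The RNA came from whole worms of the N2 strain, the wild-type laboratory strain, grown on plates with E. coli OP50 and harvested at 6 days. One group of 3 libraries came from worms treated with D-mannose and the other group of 3 from worms given water. The labels state no dose, and they do not say whether replicates were separate cultures, so p-values measure the spread between these libraries, which may be technical.

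Cells activate mannose in steps before it can be built into glycans. Mannose-6-phosphate isomerase interconverts fructose-6-phosphate and mannose-6-phosphate, phosphomannomutase moves the phosphate to make mannose-1-phosphate, and GDP-mannose pyrophosphorylase joins that product to GTP to give GDP-mannose. GDP-mannose dehydratase and GDP-fucose synthase then convert part of it into GDP-fucose. GDP-mannose serves N-glycans, GPI anchors and C-mannosylation, and GDP-fucose serves fucosylated glycans and glycoproteins. In C. elegans, bre-1 mutants are resistant to a crystal toxin of Bacillus thuringiensis that binds glycolipids.

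The annotation in the deposited tables covered all the chosen names, and its GDP-mannose term also covered genes that were not chosen. Its term for GDP-mannose biosynthesis was carried by 6 genes, ZK632.4, F52B11.2, tag-335, C05C8.7, Y47D9A.1 and cfp-1, and its term for GDP-fucose biosynthesis by 3 genes, bre-1, gmd-2 and ger-1. All genes below are placed on WBcel235 as the tables give them, with exon counts from the Ensembl 115 annotation of that build.

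Depth, in read equivalents rounded per library, ran from 39900000 to 46000000. Levels are given as FPKM, which is scaled by gene length and by a library size that differs from the summed depth. The size implied by the values was 38000000 in mannose 1 and 38600000 in water 3, below their summed depths of 42700000 and 46000000. In the other 4 libraries it was 41700000 to 49400000, above their summed depths of 39900000 to 43700000. How this size was set was not given in the sources used here. Mannose 1 and water 3 stood apart from the other libraries, with scores of −41.7 and −48.2 on a principal component that held 67.2% of the variance, against 7.68 to 32.95 in the other 4. The summed level of 21 oocyte and germline markers was 9431, 5630 and 3636 FPKM in mannose 1, 2 and 3, against 3987, 4701 and 10490 in water 1, 2 and 3. The 6 epidermis markers were all cuticle collagen genes (dpy-7, col-19, col-119, rol-6, bli-1 and dpy-13). Their summed level did not overlap between the groups, at 4996 to 5881 FPKM in mannose and 6532 to 7698 FPKM in water. The sums of the other 5 lists overlapped. In whole-worm RNA, fewer cells of a type and less RNA of its marker genes per cell cannot be told apart. No marker of the oocyte and germline, sperm, intestine, body wall muscle, epidermis or neuron lists was at 0 in all libraries, and 21 of 21, 14 of 14, 8 of 8, 6 of 6, 3 of 6 and 5 of 6 of them, in that order of lists, had at least 1 FPKM in every library.

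Neither the making of GDP-mannose nor its conversion to GDP-fucose showed a transcript difference between mannose-treated worms and water-treated worms that passed the test. Limma on log2(FPKM + 1), with Benjamini-Hochberg adjustment over 11237 genes, called 0 of the 5 synthesis genes that passed the filter on low values, beside 0% of all tested genes. At an unadjusted p under 0.05 there were 0 of 5, against 4.73% of all tested genes, and limma-voom on read equivalents also called none. Among the 5 genes 2 had a positive log2 difference and 3 a negative one, with a median of −0.00040 against 0.015 over all tested genes. The gene gmd-2 did not pass the filter and was not tested.

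**Figure D1:**
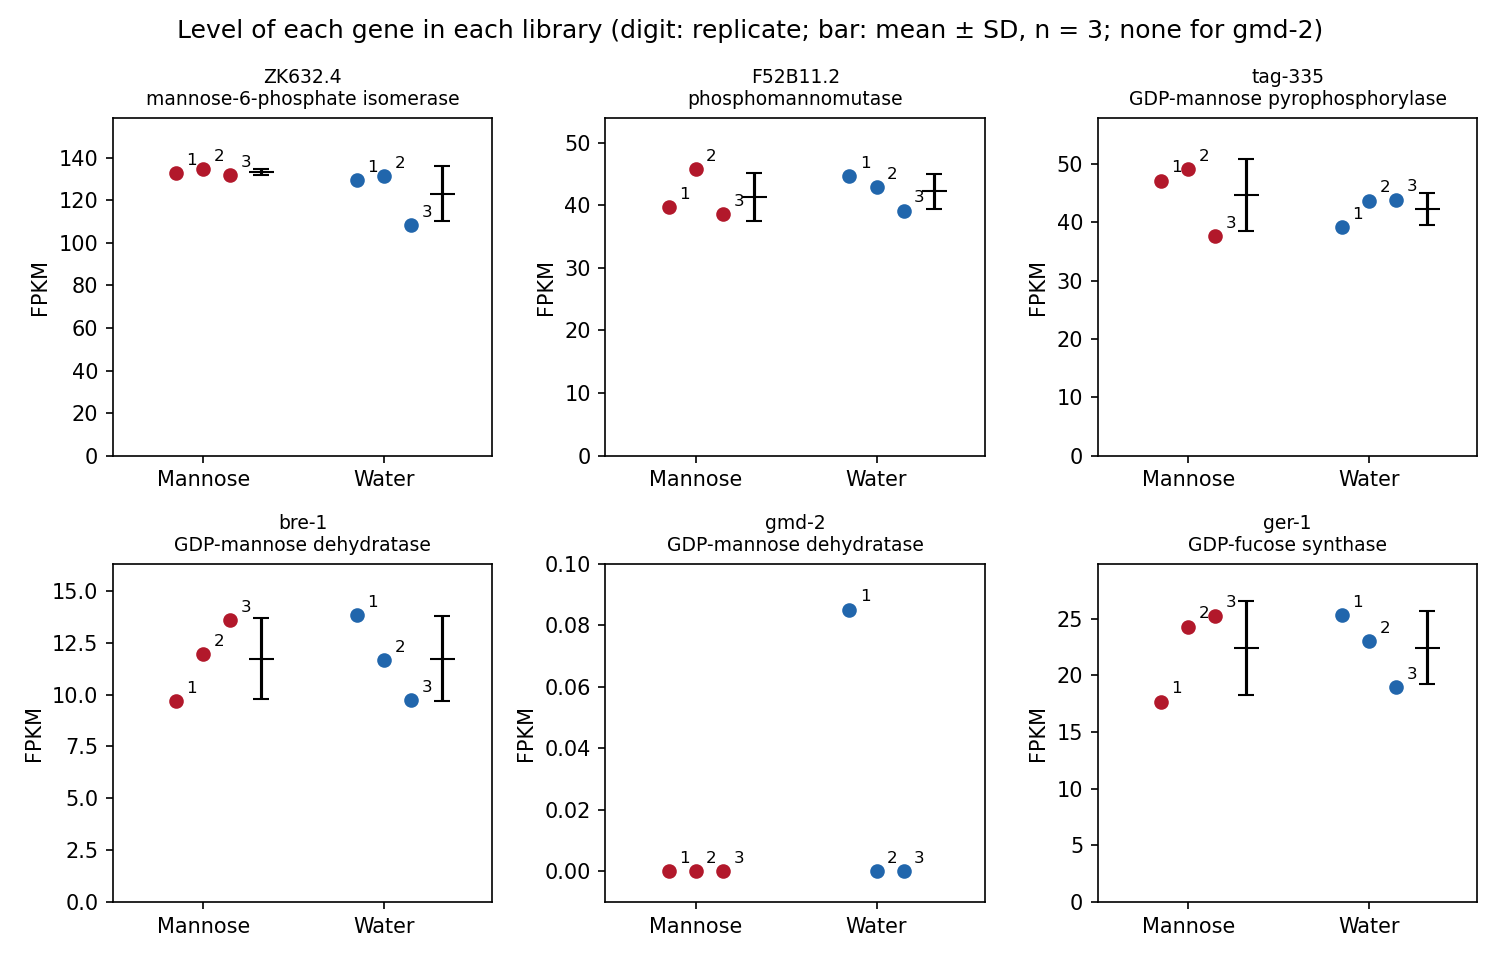
FPKM (vertical axis, starting at 0 except for gmd-2) of the 6 synthesis genes in each library, mannose left and water right, with the replicate number beside each point and the mean ± SD (n = 3) as a bar where the gene was tested. Groups overlap in every panel but that of ZK632.4, where mannose spans 131.9 to 134.6 FPKM and water 108.3 to 131.4 FPKM, and gmd-2 has a value in water 1 alone.

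The most abundant transcript of the set was ZK632.4, annotated as a probable mannose-6-phosphate isomerase. It lies on chromosome III, minus strand, from 9805515 to 9807454, with 5 exons and an annotated 3′ UTR. Its level was 132.7, 134.6 and 131.9 FPKM in mannose 1, 2 and 3, against 129.5, 131.4 and 108.3 FPKM in water 1, 2 and 3. On the deposited scale the mannose libraries lay close together and above all water libraries. Water 1 and 2 lay just below them, and only water 3 was far lower. Non-overlap of this kind, higher in mannose, was seen in 5.42% of all tested genes. The epidermis marker sums, lower in mannose, did not overlap either, and their part in this value was not tested. The log2 difference was 0.12 (standard error 0.12, limma adjusted p = 0.9999), and the 95% interval ran from a fold of 0.893 to 1.32 on the FPKM + 1 scale. Without water 3 the log2 difference was 0.028, and without both mannose 1 and water 3 it was 0.031. Upper-quartile scaling gave 0.054 (standard error 0.18). Read equivalents, before any library scaling, overlapped between the groups. They were 7300, 8123 and 9434 in mannose 1, 2 and 3, against 9068, 8253 and 6053 in water 1, 2 and 3.

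F52B11.2, annotated as a probable phosphomannomutase, varied the least in FPKM on the log2 scale over the 6 libraries among the 5 tested genes. It lies on chromosome IV, plus strand, from 14083568 to 14084695, with 2 to 3 exons in 2 annotated transcripts and an annotated 3′ UTR. It had 39.7, 45.8 and 38.6 FPKM in mannose 1, 2 and 3, against 44.6, 42.9 and 39.1 FPKM in water 1, 2 and 3. The groups overlapped, and the highest and lowest values were both in mannose. The log2 difference was −0.031 (standard error 0.13), and the interval was a fold of 0.784 to 1.22 (limma adjusted p = 0.9999).

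The value of F52B11.2 carries an uncertainty of gene models. In the deposited tables the gene model of cfp-1, a component of a histone methyltransferase complex, runs along the same strand from 14077441 to 14084679 and covers 1112 of the 1128 bases of F52B11.2. In Ensembl 115 cfp-1 ends at 14083568, the base at which F52B11.2 starts. The level of cfp-1 was 43.2, 43.5 and 31.8 FPKM in mannose 1, 2 and 3, against 30.8, 34.05 and 45.1 FPKM in water 1, 2 and 3. Its order over libraries was not that of F52B11.2, and the assignment of reads in the shared stretch, not given in the sources used here, may affect both values.

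The gene tag-335 encodes the beta form of GDP-mannose pyrophosphorylase. It lies on chromosome IV, minus strand, from 12276090 to 12278594, with 4 to 5 exons in 2 annotated transcripts that include 5′ and 3′ UTRs. It had 47.1, 49.1 and 37.6 FPKM in mannose 1, 2 and 3, against 39.2, 43.7 and 43.9 FPKM in water 1, 2 and 3. Mannose 1 and 2 were the highest libraries and mannose 3 was the lowest, so the groups overlapped. The log2 difference was 0.069 (standard error 0.15), and the interval was a fold of 0.816 to 1.35 (limma adjusted p = 0.9999).

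Besides cfp-1, the genes C05C8.7 and Y47D9A.1 shared the GDP-mannose term. Y47D9A.1 is a member of the hexose entry list described below, and C05C8.7 was picked after its annotation was seen. C05C8.7 carries the isomerase annotation of ZK632.4 and was much lower than it, by a ratio of 5.71 to 9.99 within a library. It had 17.1, 13.5 and 13.4 FPKM in mannose 1, 2 and 3, against 16.3, 16.8 and 18.96 FPKM in water 1, 2 and 3, a log2 difference of −0.23 (standard error 0.16, limma adjusted p = 0.9999). Y47D9A.1, whose closest Swiss-Prot match in the tables is the alpha form of GDP-mannose pyrophosphorylase, had 64.4, 57.5 and 36.3 FPKM in mannose 1, 2 and 3, against 36.6, 44.2 and 62.4 FPKM in water 1, 2 and 3. Its level was close to that of tag-335, with a ratio of tag-335 to Y47D9A.1 between 0.703 and 1.07, but it spanned 0.81 log2 units over the 6 libraries where tag-335 spanned 0.38.

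Of the paralogs for the dehydratase that takes GDP-mannose toward GDP-fucose, bre-1 was measured in all 6 libraries, while gmd-2 was listed at 0 in 5 of 6. The gene bre-1 lies on chromosome IV, plus strand, from 8987268 to 8990463, with 5 to 7 exons in 5 annotated transcripts that include 5′ and 3′ UTRs. It had 9.67, 11.9 and 13.6 FPKM in mannose 1, 2 and 3, against 13.8, 11.6 and 9.74 FPKM in water 1, 2 and 3. The groups spanned nearly the same range, with mannose 1 and water 3 lowest. The means were 11.7 ± 1.96 FPKM in mannose and 11.7 ± 2.04 FPKM in water (SD, n = 3), and the log2 difference was −0.00040 (standard error 0.20) with an interval of a fold of 0.718 to 1.39 (limma adjusted p = 0.9999).

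The gene gmd-2 lies on chromosome I, minus strand, from 12292202 to 12293936, with 6 exons and an annotated 3′ UTR. It was listed at 0 FPKM in all mannose libraries, against 0.0850, 0 and 0 FPKM in water 1, 2 and 3. The single value is worth 5 reads, and 1 read in this gene is worth 0.0167 to 0.0216 FPKM. No fold change is given for it. The 2 dehydratase genes are paralogs, and reads that fit both could have been divided or dropped. The read equivalents of bre-1 were whole numbers in 0 of 6 libraries, within 0.05 of a read, while those of the other synthesis genes, gmd-2 included, were whole in 6 of 6. Fractions were not particular to the dehydratase genes. Among the list genes described below, the lowest read equivalents were 1855.9 for gpi-1, 2441.6 for nstp-10 and 239.53 for pad-2. Whether bre-1 and gmd-2 shared reads was not tested.

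GDP-fucose synthase, the enzyme that completes GDP-fucose, is encoded by ger-1. The gene lies on chromosome III, minus strand, from 7065439 to 7067477, with 6 exons and both UTRs annotated. It had 17.7, 24.3 and 25.3 FPKM in mannose 1, 2 and 3, against 25.3, 23.0 and 18.96 FPKM in water 1, 2 and 3. As with bre-1, mannose 1 and water 3 were lowest and the groups overlapped. The means were 22.4 ± 4.138 FPKM in mannose and 22.4 ± 3.21 FPKM in water (SD, n = 3), with a log2 difference of −0.0076, a standard error of 0.20 and an interval of a fold of 0.712 to 1.39 (limma adjusted p = 0.9999).

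The intervals show what these libraries could resolve on the deposited FPKM scale, with no added term in the model. For each of the 5 tested genes the 95% interval on the log2 scale lay within −0.49 to 0.48. It was narrowest for ZK632.4, at −0.16 to 0.40, and widest for ger-1, at −0.49 to 0.47. The median standard error over all tested genes was 0.18, and those of the synthesis genes ran from 0.12 to 0.20. A term marking mannose 1 and water 3, which stood apart in these same data, was also added to the model. This pair holds 1 library of each group, so the log2 differences could not change. The standard errors were then 0.13 for bre-1, 0.11 for ger-1 and 0.087 for ZK632.4, and none of the 5 genes was called. Leaving out 1 library turned the sign of the difference for bre-1 and ger-1 (without mannose 1, water 1 or water 2), F52B11.2 (without mannose 3 or water 1) and tag-335 (without mannose 2). Upper-quartile scaling gave 0.054 (standard error 0.18) for ZK632.4, 0.0059 (0.14) for tag-335 and −0.093 (0.18) for F52B11.2. Under that scaling the standard errors of bre-1 and ger-1 were both 0.27. With a term for replicate number instead they were 0.28 for bre-1 and 0.27 for ger-1. The intervals above therefore hold for their own fit and scale alone.

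**Figure D2:**
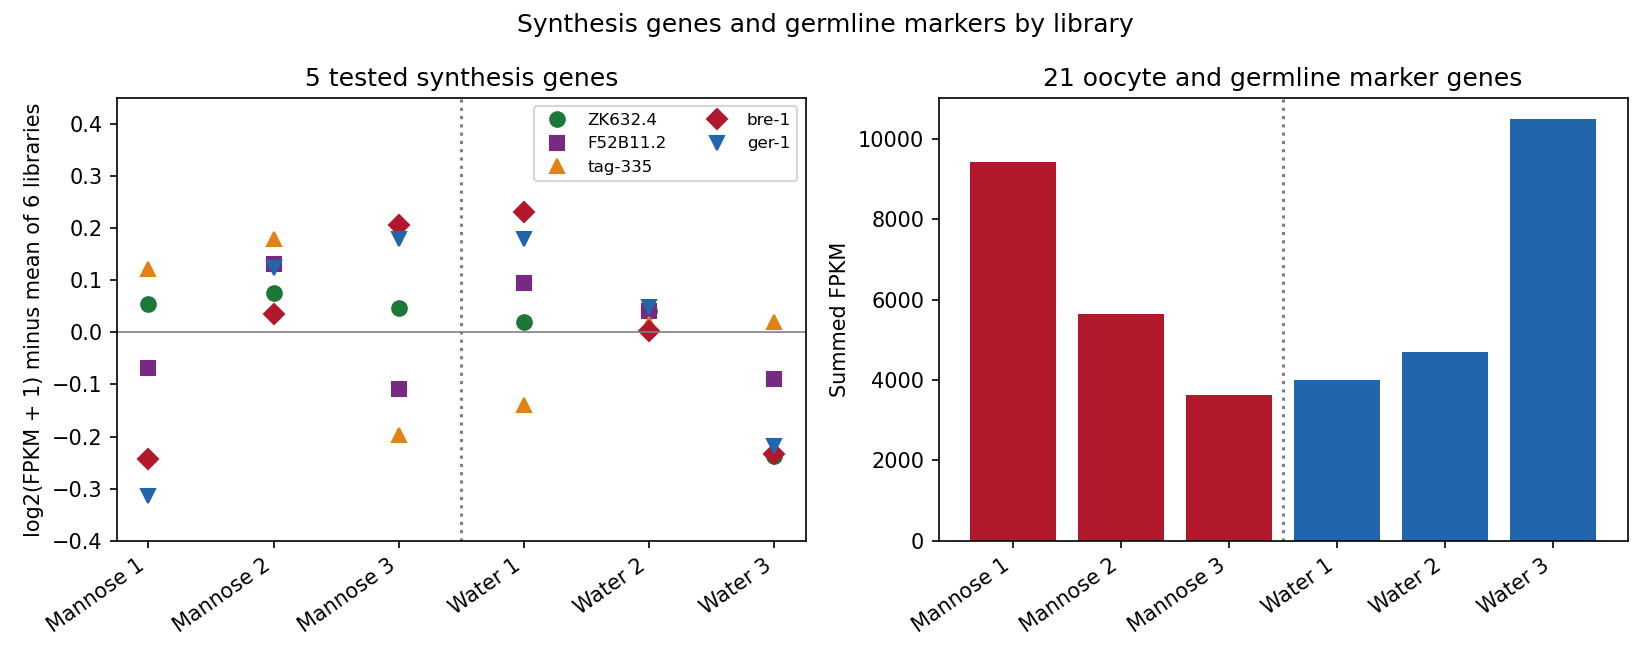
Left, the log2(FPKM + 1) level of the 5 tested synthesis genes in each library minus the gene's mean over the 6 libraries. Right, the summed FPKM of 21 oocyte and germline markers in the same libraries, with bars from 0, mannose in red and water in blue. The genes bre-1 and ger-1 lie at −0.31 to −0.22 in mannose 1 and water 3, where the markers sum to 9431 and 10490 FPKM.

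On the deposited FPKM scale each of the 5 tested genes spanned less between libraries than the median gene, and their courses were not all alike. The log2 level spanned 0.24 units over the 6 libraries for F52B11.2, 0.31 for ZK632.4, 0.38 for tag-335, 0.47 for bre-1 and 0.49 for ger-1. The median over 7528 genes with a mean of at least 5 FPKM was 0.61. Of those genes, 94.98% spanned more than F52B11.2, but only 67.2% spanned more than bre-1 and 64.3% more than ger-1.

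The GDP-fucose genes bre-1 and ger-1 ran together. In mannose 1, 2 and 3 their log2 deviations from the mean were −0.24, 0.036 and 0.21 for bre-1 and −0.31, 0.12 and 0.18 for ger-1. In water 1, 2 and 3 they were 0.23, 0.0020 and −0.23 for bre-1 and 0.18, 0.050 and −0.22 for ger-1. The same pair of libraries, 1 from each treatment, was thus lowest for both genes, and it was the pair with the highest germline marker sums. It was also the pair that stood apart on the principal component. This course was not particular to bre-1 and ger-1. Among the list genes described below, dpm-1, dpm-3, algn-2, fut-3 and nstp-10 were also lowest in this pair, while others such as algn-1 and algn-3 were not. The part of germline content in these values was not tested.

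On the deposited FPKM scale the GDP-mannose genes followed no common course. ZK632.4 was low in water 3 alone, at −0.24, and within 0.020 to 0.075 in the other 5 libraries. The gene tag-335 was high in mannose 1 and 2, at 0.12 and 0.18, and low in mannose 3 and water 1, at −0.20 and −0.14. F52B11.2 was highest in mannose 2, at 0.13, and water 1, at 0.095. In read equivalents, before any library scaling, each of these genes was lowest in mannose 1 and water 3, as were bre-1 and ger-1. F52B11.2 had 1387 and 1388 there against 1711 to 1982 elsewhere, and tag-335 had 2975 and 2815 against 3084 to 3399. The library size implied by the FPKM values was also lowest in mannose 1 and water 3, at 38000000 and 38600000. A gene with even FPKM therefore has its fewest read equivalents in these libraries. The common course of a gene thus depends on the library scaling.

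Because FPKM is scaled by length, levels of the genes can be compared within a library. The order of mean level was ZK632.4, tag-335, F52B11.2, ger-1, bre-1 and gmd-2. ZK632.4 stood 1.56 ± 0.19 log2 units above tag-335 (SD, n = 6), and F52B11.2 stood 0.91 ± 0.19 above ger-1. The gene ger-1 stood 0.94 ± 0.064 log2 units above bre-1. Each of these 3 differences had the same sign in 6 of 6 libraries. The neighbours tag-335 and F52B11.2 did not differ beyond their spread, at 0.052 ± 0.15 log2 units, with tag-335 higher in 4 of 6 libraries. No size is given for bre-1 over gmd-2, since gmd-2 was listed at 0 in 5 of 6 libraries. The order is a description with no test, because the neighbours were picked by these same levels.

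**Figure D3:**
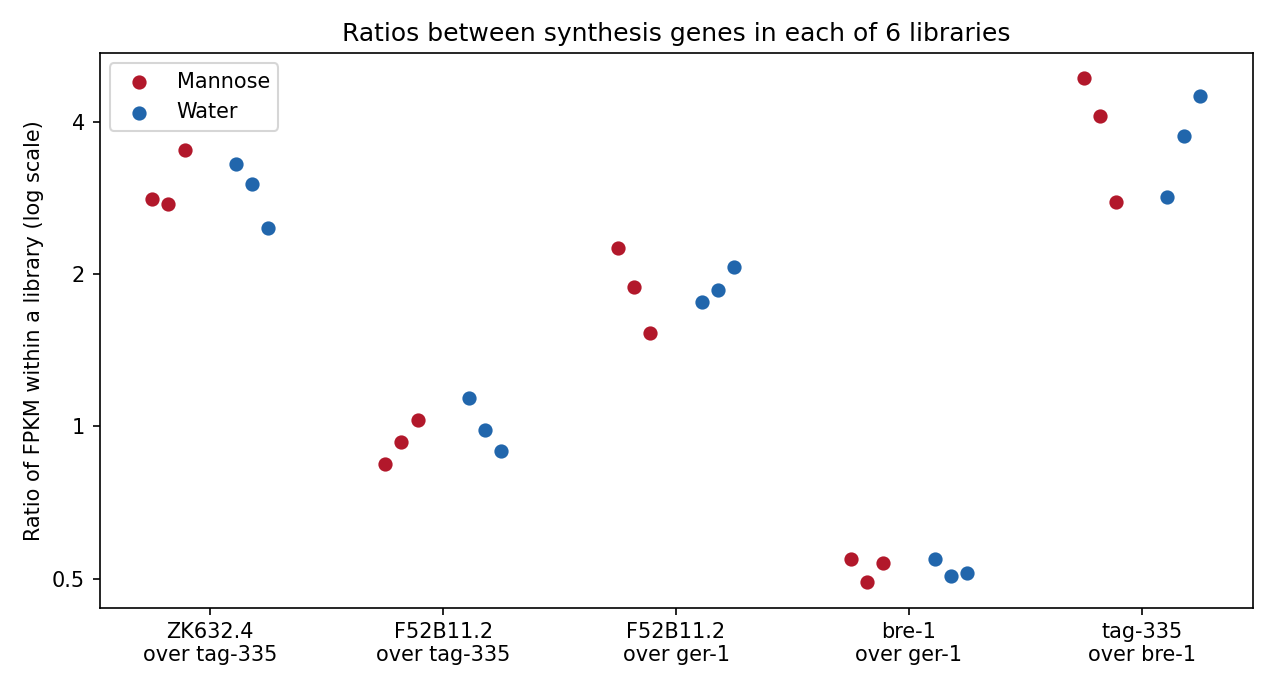
Ratio of FPKM between pairs of synthesis genes within each library, on a log axis, mannose left of water within each pair. The ratio of bre-1 to ger-1 stays between 0.491 and 0.547, while that of tag-335 to bre-1 runs from 2.77 to 4.87.

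The ratio of bre-1 to ger-1 was the steadiest of the 10 ratios among the 5 tested genes. It was 0.547, 0.491 and 0.537 in mannose 1, 2 and 3, against 0.546, 0.505 and 0.514 in water 1, 2 and 3. Its largest value was 1.113 times its smallest. The ratio of tag-335 to bre-1 was 4.87, 4.11 and 2.77 in mannose 1, 2 and 3, against 2.84, 3.75 and 4.50 in water 1, 2 and 3. This ratio compares transcripts of a gene for making GDP-mannose and a gene for its conversion, not the steps themselves. Its largest value was 1.76 times its smallest, and the groups overlapped. ZK632.4 to F52B11.2 gave 3.34, 2.94 and 3.42 in mannose 1, 2 and 3, against 2.90, 3.06 and 2.77 in water 1, 2 and 3, also with overlap.

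Likeness of profile was measured as the root mean square difference of centred log2 levels over the 6 libraries, among 7527 other genes with a mean of at least 5 FPKM. For bre-1, ger-1 was the gene at rank 105, with a difference of 0.056, and for ger-1, bre-1 was at rank 66. The median gene differed by 0.27 from either. The nearest genes to bre-1 were K07C11.7 (0.017) and apc-11 (0.020), for a subunit of the anaphase-promoting complex, and those nearest to ger-1 were F59D12.5 (0.019) and his-37 (0.029), a histone gene with near-identical copies whose value is uncertain for that reason. For ZK632.4 they were the splicing factor gene prp-31 (0.017) and F18H3.1 (0.018), for tag-335 tceb-3 (0.017) and T28A8.4 (0.020), and for F52B11.2 algn-12 (0.020) and the ceramide glucosyltransferase gene cgt-3 (0.025). The gene algn-12 encodes a mannosyltransferase of the lipid-linked N-glycan precursor and belongs to a list described below. With only 6 libraries many genes share a profile by this measure, and it is given as a description.

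Genes upstream and downstream of the nucleotide sugars were taken as 4 lists. Of 28 list genes tested, 19 had a positive and 9 a negative log2 difference, with a median of 0.096, where upper-quartile scaling gave 15 positive and 13 negative. The split was 14 and 14 without water 1 and 22 and 6 without mannose 3, and the median was lowest, at 0.029, when mannose 2 was left out and highest, at 0.25, when mannose 3 was. It was 0.031 when mannose 1 was left out, and 0.033 or 0.055 when water 1 or water 2 was. In the fit to all libraries and under upper-quartile scaling, limma called 0 of 28, against 0% of all tested genes. One gene of the 28, bre-2, had an unadjusted p under 0.05, and the groups did not overlap in 2, which is 7.14% against 10.7% of all tested genes.

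**Figure D4:**
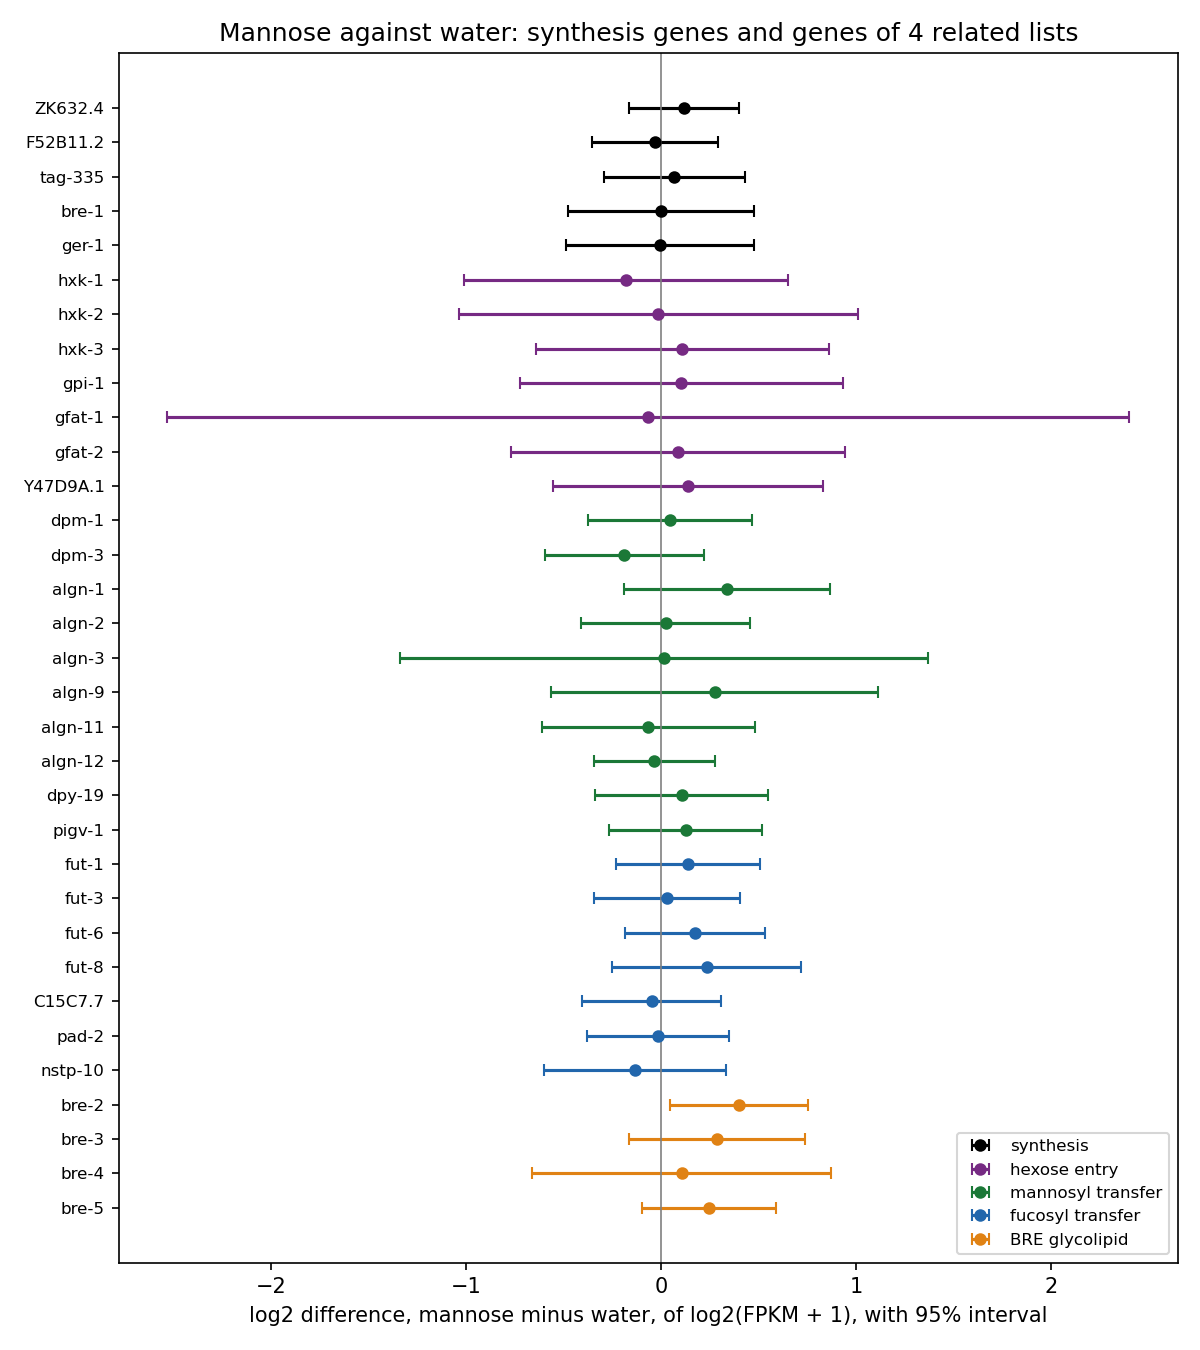
Log2 difference (mannose minus water, of log2(FPKM + 1)) with its 95% interval from limma for the 5 tested synthesis genes and 28 genes of 4 related lists, coloured by list. Intervals of the synthesis genes are narrow beside those of the hexose entry genes, and bre-2 has the one interval that does not include 0, before any adjustment for multiple tests.

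The hexose entry list, of hexokinases, glucose-6-phosphate isomerase, the hexosamine pathway's opening enzymes and Y47D9A.1, had 4 of 7 members positive and 3 negative, with a median log2 difference of 0.088. Hexokinases phosphorylate free hexoses, but the name hexose entry does not describe every member, since Y47D9A.1 carries the GDP-mannose term. The hexokinase gene hxk-1 had 142.3, 124.8 and 73.3 FPKM in mannose 1, 2 and 3, against 86.5, 130.8 and 168.0 FPKM in water 1, 2 and 3, and hxk-3 had 32.05, 23.6 and 19.1 FPKM in mannose 1, 2 and 3, against 17.1, 19.6 and 34.02 FPKM in water 1, 2 and 3. The median deviation of the list was 0.50, 0.10 and −0.57 log2 units in mannose 1, 2 and 3, against −0.45, −0.14 and 0.52 in water 1, 2 and 3. These genes were thus highest in the pair of libraries where bre-1 and ger-1 were lowest. The median standard error of a log2 difference in the list was 0.34, and the median difference was −0.16 without mannose 1, −0.12 without water 1, 0.029 without mannose 2, 0.011 without water 2, 0.38 without mannose 3 and 0.34 without water 3. All 7 members were negative without mannose 1 or water 1, and all 7 positive without mannose 3 or water 3.

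Users of GDP-mannose and of its dolichol form were measured by 10 genes, of which 7 were positive and 3 negative, with a median log2 difference of 0.034, where upper-quartile scaling gave 4 positive and 6 negative with a median of −0.029. The median was 0.063 without mannose 1, 0.000074 without mannose 2, 0.12 without mannose 3, 0.10 without water 1, 0.062 without water 2 and 0.082 without water 3, with 5 positive and 5 negative without mannose 2. The member with the smallest p was algn-1, for the mannosyltransferase that adds the first mannose of the N-glycan precursor. It had 56.9, 41.7 and 35.5 FPKM in mannose 1, 2 and 3, against 30.2, 32.9 and 41.2 FPKM in water 1, 2 and 3, a log2 difference of 0.34 (standard error 0.22, limma adjusted p = 0.9999). The dolichol-phosphate mannose synthase subunit gene dpm-3 had a log2 difference of −0.19 (standard error 0.17), and the mannosyltransferase gene algn-9 had 0.27 (standard error 0.34). All groups overlapped.

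Users of GDP-fucose were measured by 10 genes, and 7 passed the filter. Of these 4 were positive and 3 negative, with a median log2 difference of 0.031, where upper-quartile scaling gave 3 positive and 4 negative with a median of −0.032. The median was 0.11 without mannose 1, −0.0033 without mannose 2, 0.13 without water 1, 0.048 without water 2 and −0.018 without water 3. The fucosyltransferase gene fut-3 was the most abundant, at 54.3, 63.4 and 63.9 FPKM in mannose 1, 2 and 3, against 67.8, 60.5 and 50.2 FPKM in water 1, 2 and 3. The Golgi GDP-fucose transporter gene nstp-10 had 36.2 ± 6.72 FPKM in mannose and 39.5 ± 5.46 FPKM in water (SD, n = 3). The members with the smallest p were fut-6 (log2 difference 0.17, standard error 0.15), the core fucosyltransferase gene fut-8 (0.23, standard error 0.20) and fut-1 (0.14, standard error 0.15). The genes fut-2, fut-4 and fut-5 had means of 0.124, 0.832 and 0.0394 FPKM in mannose, against 0.0458, 0.818 and 0.0356 FPKM in water, and did not pass the filter.

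The genes bre-2, bre-3, bre-4 and bre-5, which with bre-1 confer sensitivity to the crystal toxin and encode glycosyltransferases of glycolipid synthesis, had 4 of 4 positive log2 differences with a median of 0.27. Without mannose 1, water 1 or water 2 the split was 3 positive and 1 negative, and over the fits without 1 library the median was 0.19 to 0.36. None was called (limma adjusted p = 0.9999 for each), and the groups did not overlap in 2 of 4, bre-2 and bre-5, both higher in mannose, against 5.42% of all tested genes. The part of the epidermis marker sums, lower in mannose with no overlap, was not tested here either. The low-level gene bre-2 had 1.68, 1.87 and 2.34 FPKM in mannose 1, 2 and 3, against 1.535, 1.21 and 0.990 FPKM in water 1, 2 and 3. The gene bre-5 had 27.5, 28.2 and 24.3 FPKM in mannose 1, 2 and 3, against 21.7, 20.9 and 24.3 FPKM in water 1, 2 and 3, with mannose 3 and water 3 nearly equal. The gene bre-3 had 52.7, 44.96 and 36.5 FPKM in mannose 1, 2 and 3, against 32.4, 34.4 and 42.1 FPKM in water 1, 2 and 3. For bre-4, mannose 1, 2 and 3 had 17.9, 14.8 and 10.2 FPKM. Water 1, 2 and 3 had 10.2, 10.6 and 19.7 FPKM. The log2 difference of bre-4 was 0.11 (standard error 0.32). Its highest libraries were water 3 and mannose 1, the pair with the highest germline marker sums, and the part of germline content was not tested. The log2 difference of bre-1 was −0.00040, and whether it differed from that of bre-2 or bre-5 was not tested.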

How the data were processed

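Per the submitters' processing notes, cutadapt, FastQC and HISAT2 2.1.0 were used on the reads, with the genome build WBcel235. The read counter and strand setting were not given in the sources used here. Library values were normalized before deposit: the authors deposited FPKM values, 1 table per library. Read equivalents were worked out from the value that 1 read takes in each library: 95.1% to 95.8% of values worth up to 20 reads came out whole within 0.05 of a read. Genes with at least 1 FPKM in at least 3 libraries (11237) were tested with limma 3.58.1 (trend, robust, R 4.3.3) on log2(FPKM + 1), a scale that understates changes of low genes, with a Benjamini-Hochberg threshold of 0.05. The script was tested on simulated data. Levels were compared within libraries (Python 3.11.15) as a description. The sign-flip test planned for neighbours in level is not reported, since the same levels chose the neighbours. The synthesis genes, the lists and the alternatives were chosen with earlier results of these data known. From each list up to 3 genes with the smallest p were named, plus genes that describe a level. The nearest 2 genes by profile were named for each synthesis gene. Libraries were grouped by their labelled treatment and replicate.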

Additional observations from a re-analysis of the deposited data

How the results depend on the processing

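The alternatives were a pseudocount of 0.1, no filter, a filter at a mean of 5 FPKM, upper-quartile scaling, limma-voom, a replicate block, leaving out each library, leaving out mannose 1 and water 3, and a term for both. None of them called a synthesis gene or a list gene, and the lowest limma adjusted p of a synthesis gene was 0.60 (ZK632.4, with that term). Over all genes limma called 0, against 0 to 2 without 1 library (linc-44 and dml-1, without mannose 1) and 3 without mannose 1 and water 3 (these and pgph-1). The sign of uncalled log2 differences near 0 depended on single libraries. Leaving out 1 library gave −0.12 to 0.12 for bre-1 (0.12 without mannose 1 or water 1, 0.00051 without water 2), −0.12 to 0.15 for ger-1 (positive without mannose 1, water 1 or water 2), −0.10 to 0.016 for F52B11.2 (positive without mannose 3 or water 1) and −0.0039 to 0.18 for tag-335 (negative without mannose 2). Without mannose 1 and water 3 the values were 0.0046 for bre-1 and 0.037 for ger-1. ZK632.4 stayed positive, at 0.028 to 0.17. Without 1 library the list medians ran from −0.16 to 0.38 (hexose entry), 0.000074 to 0.12 (mannosyl transfer), −0.018 to 0.13 (fucosyl transfer) and 0.19 to 0.36 (BRE glycolipid); with a mean of at least 5 FPKM the fucosyl transfer median was −0.048. The cause was not tested. Same-numbered libraries do not deviate together (correlations over genes of −0.74, 0.24 and −0.71 for numbers 1, 2 and 3), and under the replicate block 0 genes passed. An unadjusted limma p under 0.05 was found for 164 of 11237 genes with the block and 532 without it. The count was 1453 with the term for mannose 1 and water 3, and 713 without both. These 2 libraries were marked because they stood apart in these same data. No main value exists for gmd-2, which fails the filter. Without mannose 1 and water 3 the level of tag-335 over F52B11.2 was −0.025 log2 units, against 0.052; the other level differences kept their sign.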
